A study of Homo sapiens with 6 samples.

Results

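The introns described here had low measured retention in control K562 cells and a higher measured value in every library with an shRNA against ZRSR2. The selection required this order, which in introns with few reads can lie within counting error. Retention is the percentage named MSI in the deposited tables, the reads across both exon-intron boundaries over those reads plus 2 times the spliced reads. Introns were selected on these values: a mean over the libraries of at least 50 reads, boundary and spliced together, retention under 3% in both control libraries, retention in each of the 4 knockdown libraries above both controls, and a mean difference of at least 4 percentage points. It left 278 of 241593 introns, after 116705 passed the read minimum, 77662 of these passed the control limit and 6283 of these (8.09%) had every knockdown library above both controls. They fell in 249 named genes, except 7 without a gene name, and made up 0.358% of the introns that could have been selected. Because the selection used the retention values, the differences between knockdown and control are given as a description, with no test.

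K562 is a human leukaemia line with erythroid features. All cells were grown in RPMI-1640 with fetal bovine serum and transduced with an shRNA: a control shRNA (Con_sh), ZRSR2 sh1 or ZRSR2 sh2, with 2 libraries in each of the 3 groups, numbered experiment 1 and 2 in the labels. Libraries were made from polyA-selected RNA, so RNA without a polyA tail is under-represented. The labels give neither untransduced cells nor separate cultures for the libraries, and p-values therefore measure only the spread between these samples, which may be technical. In the intron tests this spread was in effect shared over all introns, not estimated from the libraries of each intron. Spliced reads summed over all introns came to between 82986327 and 101120454 per library. ZRSR2, measured by its spliced reads in CPM, scaled to equal library totals, stood at 27.5 and 23.2 CPM in the control, 10.6 and 10.6 CPM with sh1 and 10.1 and 12.7 CPM with sh2. All 14 markers of K562 cells on the list used were above 10 CPM in every library. Of 13 markers of other cell types, 3 were under 1 CPM in every library and 6 were above 10 CPM in all of them, with a summed level of 493 to 630 CPM in the control and 398 to 574 CPM in the knockdown.

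Introns are removed by the spliceosome, which joins the exons on either side. Most introns are handled by the major spliceosome, and a small class, the U12-type introns, by the minor spliceosome, whose protein ZRSR2 takes part in recognising the 3′ splice site. An intron that stays in a polyA transcript usually interrupts the reading frame, and such RNA is often kept in the nucleus or degraded.

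Some of the selected introns hold further annotated RNAs or start sites, whose sequences are shown because reads from them would fall inside the intron. Sequences and positions are from RefSeq on GRCh38.p14, to which the deposited positions correspond. An intron of WDR91 at chr7:135206059-135207119, minus strand, holds MIR6509, and an intron of the noncoding RNA MIR181A2HG at chr9:124658742-124698244, plus strand, holds MIR181A2 and MIR181B2. The mature miRNAs, with the seed (bases 2 to 8) in capitals, are:
hsa-miR-6509-5p: aUUAGGUAguggcaguggaac
hsa-miR-6509-3p: uUCCACUGccacuaccuaauuu
hsa-miR-181a-5p: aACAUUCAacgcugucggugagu
hsa-miR-181b-5p: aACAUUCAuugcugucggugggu
The miR-181a-5p and miR-181b-5p arms share a seed.

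An intron of KYAT1 (kynurenine aminotransferase) at chr9:128845412-128846679, minus strand, holds an annotated start of the same gene. The 100 bases around it, chr9:128845701-128845800 read on the minus strand, are shown with the transcribed part in capitals.
KYAT1 start: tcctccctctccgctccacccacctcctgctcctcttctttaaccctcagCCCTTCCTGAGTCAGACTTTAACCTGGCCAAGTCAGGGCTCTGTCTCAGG
The end of only 1 selected intron could be read in the sequences available, the 5′ end of an intron of SUPT3H at chr6:45365302-45377767 on the minus strand, shown with its first dinucleotide in capitals.
SUPT3H 5′ splice site: GTtgtagggc
The type of spliceosome that removes each intron could not be read from sequence here.

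Retention of the 278 introns had a median of 1.30% and 1.36% in the control libraries, 11.8% and 5.51% with sh1 and 8.83% and 5.66% with sh2, experiment 1 first. As means of the library medians these were 1.33% ± 0.0416 (SD, n = 2), 8.64% ± 4.42 and 7.24% ± 2.25. The other introns that could have been selected lay between 0.465% and 0.653% in the 6 library medians. The mean difference had a median of 6.55 points and reached 33.3 points. It was at least 10 points in 66 introns, at least 20 in 17 and at least 30 in 2. Retention was above 10% in 165 and 52 introns with sh1 and in 121 and 45 with sh2. With both boundaries and all selected introns pooled, the control libraries had 5138 and 6048 boundary reads and the knockdown libraries 25721 to 63710.

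**Figure D1:**
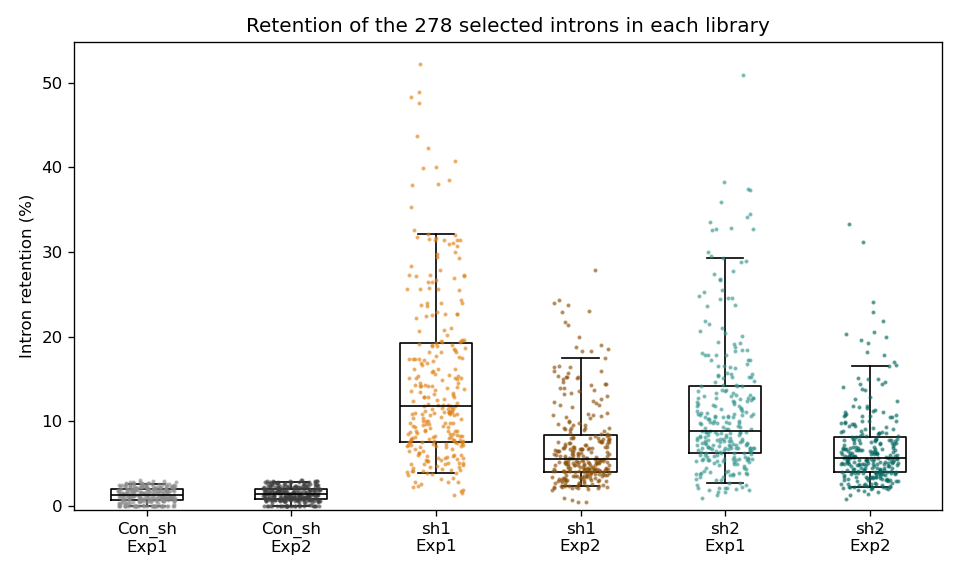
Retention in percent of the 278 selected introns (points) in each of the 6 libraries; boxes give the median and quartiles and whiskers the 5th and 95th percentiles. The control medians are 1.30% and 1.36%, and the experiment 1 libraries of sh1 (11.8%) and sh2 (8.83%) are above those of experiment 2 (5.51% and 5.66%).

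The introns with the largest differences lay in genes of several functions. SMPD4BP headed the list at chr2:131501234-131501357, with 1.43% and 1.36% in the control, 42.3% and 27.9% with sh1 and 37.4% and 31.1% with sh2. SMPD4BP is a near copy of SMPD4, a sphingomyelin phosphodiesterase, which itself held 2 selected introns with differences of 19.0 and 9.28 points, so reads could be shared between the copies and all 3 values are uncertain. FRA10AC1 followed at chr10:93694938-93698135 with 0.955% and 1.61% in the control, 48.9% (95% exact binomial interval 43.1% to 54.8%) and 14.4% with sh1 and 50.9% and 20.5% with sh2. The intervals cover counting error only. They are those of the share of boundary reads among boundary and spliced reads, with the limits then converted to the retention scale. Spliced reads across the FRA10AC1 intron numbered 415 and 336 in the control, 113 and 265 with sh1 and 194 and 250 with sh2. Its knockdown boundary reads lay to 72.8% at the 5′ side. The separation from the controls held in every knockdown library, as the selection required, but the experiment 1 and experiment 2 values of the same shRNA lay far apart.

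BRF1, a subunit of the factor that recruits RNA polymerase III, held a long member of 16171 nt at chr14:105256550-105272720. Its retention was 0.358% and 1.39% in the control, 43.8% and 18.8% with sh1 and 36.0% and 20.2% with sh2, with only 21.3% of its knockdown boundary reads at the 5′ side. With the smaller boundary count doubled in place of the sum of both, its difference was 14.8 points against 28.8. Further introns among the 12 with the largest difference lay in MYSM1 (27.4 points), a histone H2A deubiquitinase, RABGGTA (27.2), a Rab prenyltransferase subunit, TTC23 (25.9), ADAT2 (22.3), a tRNA adenosine deaminase subunit, and in UFD1, PARP1, TMEM258 and MAPK8, described with their groups. TTC23 had the fewest reads of the 12, at 69.3 per library on average.

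**Figure D2:**
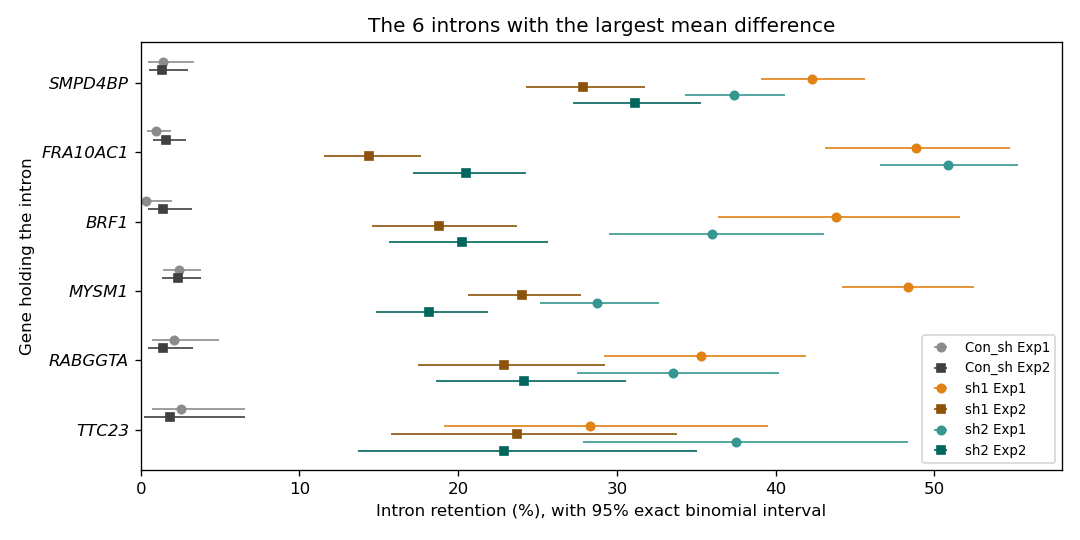
Retention in percent (x axis) of the 6 introns with the largest mean difference, 1 row per gene, with a point per library and its 95% exact binomial interval. Both control points lie under 3% in every row, as the selection required, and the experiment 1 points of each shRNA (circles) lie to the right of its experiment 2 points (squares).

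U12-type introns are known from a limited set of genes, and a list of 67 such genes was written from memory, with earlier results of these data known, so its count is not independent evidence. Of 63 list genes with an intron that could have been selected, 29 (46.0%) held a selected intron, against 2.39% of the 10401 genes with such an intron. These 29 genes held 34 of the 278 introns. Whether the selected intron is the U12-type intron of its gene was not tested. The median difference was 8.70 points in the 34 and 6.38 points in the other 244. Reads covered at least 95% of the intron in 31 of the 34, against 193 of all 278. The 34 had more reads, however: 14 had 300 to 1000 and 13 at least 1000, against 84 and 50 of all 278. Of the 134 members with at least 300 reads, 132 were covered over at least 95%. The median difference was 8.11 and 7.63 points in these 2 depth ranges and 5.19 points at 50 to 100 reads. Whether the list bears on coverage or difference apart from depth was not tested.

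Among signalling genes, 5 of 27 held a selected intron. The stress kinase MAPK8 (JNK1) had retention of 1.87% and 2.99% in the control, 25.6% and 13.6% with sh1 and 38.3% and 17.8% with sh2 at chr10:48420321-48424087, a difference of 21.4 points. Its knockdown boundary reads were spread over both sides, 48.1% being at the 5′ side. The stress kinase MAPK14 (p38α, 5.28 points), BRAF (10.2 points) and the mTOR subunit MLST8 (8.72 points) were also members.

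Of 28 DNA repair and chromosome maintenance genes, 4 held a member. PARP1, which senses DNA breaks, had 1.07% and 1.06% in the control, 32.6% and 15.2% with sh1 and 29.6% and 15.1% with sh2 at chr1:226361542-226361968. ACTL6A, an actin-related subunit of chromatin remodellers, had a difference of 18.0 points, with 84.8% of the knockdown boundary reads at the 5′ side and an antisense gene at the same place. With the smaller boundary count doubled the ACTL6A difference was 6.57 points. XRCC5, the Ku80 end-binding protein, had a difference of 7.25 points and CHD1L, a remodeller recruited by poly(ADP-ribose), of 5.57 points.

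The ubiquitin and autophagy list had 8 of 25 genes with a member. UFD1, which works with the VCP segregase to extract ubiquitylated proteins, combined a large difference with many reads (7938 per library on average). Its intron at chr22:19465275-19467872 stood at 1.68% and 2.02% in the control, 29.98% and 15.3% with sh1 and 32.8% and 19.96% with sh2. The deubiquitinases USP14 (10.6 points) and USP10 (9.13 points), the ligase scaffold CUL4A (10.1 points) and its paralogue CUL4B were also members. UFD1 had nearly equal numbers of reads at both sides, 50.9% being at the 5′ side.

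Of 20 cell-cycle factors and spindle genes, 5 held a member. ZNF207 (BUGZ), a kinetochore protein that binds BUB3, had 2 members separated by 165 nt. The first, at chr17:32350327-32351464 and with the most reads of all (8843 per library), stood at 1.26% and 1.66% in the control, 31.7% and 12.6% with sh1 and 30.1% and 16.6% with sh2. The second, at chr17:32351630-32351742, stood at 0.265% and 0.245%, 12.5% and 5.18%, and 11.5% and 6.04%. Knockdown boundary reads were uneven in opposite senses, 78.2% being at the 5′ side of the first intron and 25.8% at that of the second, so the boundaries facing the exon between them had fewer reads. With the smaller boundary count doubled the differences were 11.3 and 4.59 points. E2F6, a repressor of the E2F family, had a difference of 18.0 points and the formin DIAPH1 of 4.36 points.

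RNA transcription and processing genes had 8 of 32 with a member. THOC2, the scaffold of the THO mRNA export complex, held 2 members lying 26684 nt apart, described with the comparison of the shRNAs. The RNA polymerase subunit POLR2E had a difference of 8.73 points, the nonsense-mediated decay helicase UPF1 of 6.54 points and the exosome subunit EXOSC1 of 5.56 points. HNRNPM, an RNA-binding splicing regulator, had 1.09% and 1.40% in the control, 14.2% and 4.47% with sh1 and 8.35% and 4.11% with sh2, at 6985 reads per library. None of 16 minor spliceosome protein genes with an intron that could have been selected held a member.

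Of 20 nuclear transport genes, 4 held a member: IPO11 (16.8 points), NUP155 (9.36 and 5.72 points in 2 introns), XPO7 (5.47) and XPO4 (7.55). NUP210, another nucleoporin, had 2 adjacent members of 5.75 and 5.15 points, with 23.1% and 61.4% of their knockdown boundary reads at the 5′ side. Of 30 genes of protein targeting, the endoplasmic reticulum (ER) and glycosylation, 7 held a member. TMEM258, a subunit of the oligosaccharyltransferase, stood at 2.22% and 3.0% in the control, 29.7% and 15.6% with sh1 and 32.7% and 19.3% with sh2. DERL1 of ER-associated degradation (6.10 points) and the signal recognition particle proteins SRP72 (5.36) and SRP68 (4.55) had smaller differences.

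Transporters and membrane proteins had 4 of 20 genes with a member, namely TMEM161B (14.0 points), TMEM161A (6.18), SLC9A8 (5.05), a sodium-proton exchanger, and ATP6V1A (4.09), a subunit of the vacuolar proton pump. The SLC9A8 intron had 113.5 reads per library on average and only 16.2% of its knockdown boundary reads at the 5′ side. The vesicle traffic and cytoskeleton list had 1 of 28, VPS16 (4.92 points), and the mitochondrial list 0 of 25. All lists were chosen with earlier results known. The shares describe these lists only, beside the 2.39% over all genes.

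The selected introns had a median length of 1304.5 nt (quartiles 644.5 and 3210), against 1709 nt (596 and 4423) in the other introns that could have been selected. They lay at a median of 59.8% of the gene's length from its start, against 58.0%. MAST3 held the shortest at 76 nt, with 1.18% and 0% in the control, 12.1% and 2.86% with sh1 and 1.89% and 5.08% with sh2. The control value of 0% had no boundary read and a 95% exact binomial upper limit of 3.35%. This limit is above the knockdown values of 2.86% and 1.89%. DENND5B held the longest at 89733 nt, where the 6 libraries had 0 to 12 boundary reads, 87.0% of the knockdown reads lay at the 5′ side and 8.65% of the intron was covered. Of the 30 members of 10 kb or more, 18 had over 75% of their boundary reads at the same side and 7 were covered over at least 95% of their length. Of the 26 under 200 nt, these numbers were 2 and 20. Of the 30 long members, 16 had under 100 reads. Whether length bears on coverage apart from depth was not tested.

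Evenness and coverage also went with the number of reads. Of the 83 introns with 50 to 100 reads, 30 had over 75% of their boundary reads at 1 side and 19 were covered over at least 95%. Of the 84 with 300 to 1000 reads, these were 2 and 82, and of the 50 with at least 1000 reads they were 3 and 50. Of the introns that could have been selected, 0.862% were selected at 50 to 100 reads and 0.238% at 100 to 300. The share was 0.307% at 300 to 1000 reads and 0.331% at 1000 or more. What part counting error had in these shares was not tested. KYAT1, with 79 reads, had 4.76% of its knockdown boundary reads at the 5′ side, and the annotated start printed above lies between the boundaries. MIR181A2HG, in contrast, had 95.5% there and 42.5% coverage. The first of the miRNA-bearing introns, in WDR91, stood at 0.585% and 1.75% in the control, 13.3% and 2.08% with sh1 and 14.2% and 9.09% with sh2, and its upstream neighbour, 83 nt away, was also a member (13.5 points). What part reads from other start sites or short RNAs had in these values was not tested.

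Just inside the limit of 4 points were ZBTB38 (4.0007 points) and CDH24 (4.02), and just outside it ZMYM5 (3.99), LINC01446 (3.98) and ZNF791 (3.97). These introns had between 54.7 and 136.5 reads.

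Most members were single in their gene: 227 genes held 1 member, 22 held 2 and none held more. In 16 of the 22 genes they flanked the same exon, with 53 to 197 nt between them (median 84.5). In 3 genes they overlapped and in 3 they lay apart. Examples of flanked exons are those of NCBP1, the nuclear cap-binding protein (19.5 and 8.73 points), SMAP2 (15.8 and 5.05), SUDS3 (17.1 and 4.02) and TSPAN13 (6.64 and 4.34). The UBR3 pair was the same intron listed with both ends shifted by 2 nt, at chr2:169927406-169928726 and chr2:169927408-169928728, with differences of 17.41 and 17.35 points. Introns beside the same short exon can share reads, so such pairs are not independent.

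The 4 knockdown libraries entered the selection alike, so the difference between experiments within the knockdown was not fixed in direction by it, though the selection favours introns that are high in some library. It was tested by the ratio of boundary to spliced reads with edgeR's quasi-likelihood test over all 134078 introns with at least 20 reads, at a Benjamini-Hochberg adjusted p of 0.05. In this fit sh1 and sh2 of the same experiment were pooled as 1 group, and each control group held 1 library. The spread it measures is therefore that between different shRNAs, not between repeats of the same shRNA. Retention was higher in experiment 1 than in experiment 2 for most members. The edgeR test called 33 of the 278 introns more retained in experiment 1, against 0.146% of all introns tested (196, members included), and 1 more retained in experiment 2, against 0.0127%. The median log2 difference was 1.11 over the members and 0.13 over all introns. The values themselves were higher in experiment 1 under both shRNAs in 202 of 278 introns (72.7%), against 24.5% of the other introns that could have been selected, many of which were at 0. Among the 134 members with at least 300 reads the number was 126 (94.0%), a split chosen after the data were seen. In the control 127 members were higher in experiment 1 and 139 lower.

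Among the introns with the lowest p in this comparison were those of ARPC5, AP1M1, DONSON and FRA10AC1. ARPC5, a subunit of the actin-nucleating Arp2/3 complex, stood at 18.8% with sh1 and 7.24% with sh2 in experiment 1 and at 4.26% and 3.05% in experiment 2, over 2.05% and 1.03% in the control. Its log2 difference was 1.85 (SE 0.33, edgeR adjusted p 0.000138). AP1M1, a clathrin adaptor subunit, stood at 17.2% and 7.88% against 3.80% and 2.58% (2.04, SE 0.38, edgeR adjusted p 0.000653). DONSON, a replication fork protein, stood at 40.1% and 25.5% against 13.9% and 10.4% (1.80, SE 0.35, edgeR adjusted p 0.00124). FRA10AC1 had a log2 difference of 2.25 (SE 0.45, edgeR adjusted p 0.0026). In all 4, both experiment 1 libraries were above both experiment 2 libraries of the knockdown. They were named for their low p in this contrast, which favours such an order, so it adds no evidence.

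SKIC2, an RNA helicase of the cytoplasmic exosome's cofactor, was the single member called in the other direction. It stood at 1.77% and 2.41% in experiment 1 and at 15.2% and 17.0% in experiment 2 of the knockdown, over 1.42% and 1.17% in the control. Its log2 difference was -3.14 (SE 0.63, edgeR adjusted p 0.0027). None of its knockdown boundary reads lay at the 5′ side and 42.9% of its 147 nt were covered. All of its knockdown boundary reads thus lay at the 3′ side.

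**Figure D3:**
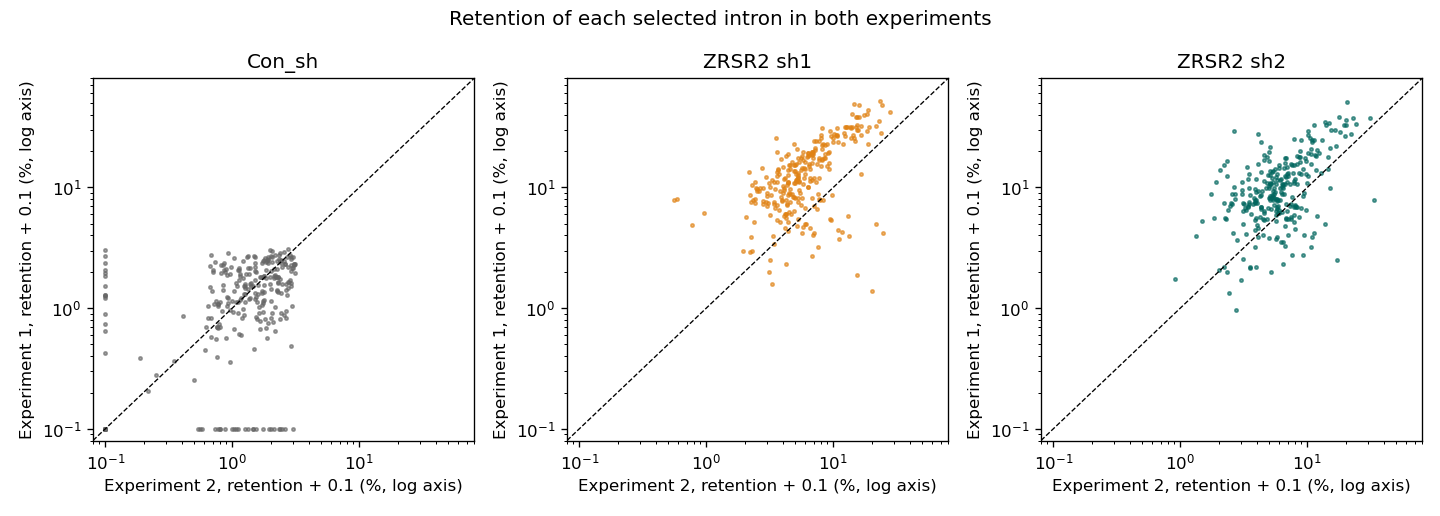
Retention plus 0.1, in percent on log axes, of each selected intron in experiment 1 (y) against experiment 2 (x) for the control, sh1 and sh2; the dashed line marks equal values. With sh1, 246 of 278 introns lie above the line, with sh2 221, and in the control 127.

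ZRSR2 itself stood at the same level in both sh1 experiments (10.6 CPM) and at 10.1 and 12.7 CPM in those of sh2. Of the 14 K562 markers, 10 had more spliced reads in experiment 1 under both shRNAs, among them the globins and glycophorins, 3 (TFRC, BCR and ABL1) had fewer under both, and 1 was mixed, while in the control 12 had fewer in experiment 1. They summed to 13566 and 6913 CPM with sh1, 22239 and 10302 CPM with sh2 and 5288 and 7349 CPM in the control, experiment 1 first. Their part in the retention values was not tested. Whether the knockdown effect itself differed between experiments was tested against the control of the same experiment. That control was 1 library in each experiment, so its own spread could not be measured. The edgeR test called 0 members, and 51 (18.3%) had an unadjusted p under 0.05, against 4.11% of all introns, with a lowest adjusted p of 0.446, while 0.00895% of all introns were called larger in experiment 1 and 0.00597% in experiment 2. DESeq2 also called 0 members. The median log2 value of this difference was 1.11 over the members and 0.17 over all introns. The contrast of experiments called 17 members with DESeq2, 20 at a read minimum of 50, and 0 both from the lower boundary count taken 2 times and in introns covered to 0.95 or more. Without sh1 experiment 1 it called 13 members, without sh1 experiment 2 10, and without sh2 experiment 2 6.

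Both shRNAs were above the control in every member by selection, and the size of retention was then compared between them. The edgeR test called 8 members more retained with sh1 than with sh2, against 0.0246% of all introns tested (33, members included), and 0 more retained with sh2, against 0.0097%. In all 8, both sh1 libraries were above both sh2 libraries, an order that being called in this contrast favours. The selection used the mean over both shRNAs, so an intron could pass it through high values with either shRNA alone. Of the 8, the rise of the sh2 mean over the control mean was smallest in DIAPH1 (1.29% to 2.06%) and largest in GARS1 (1.19% to 5.89%). Unselected introns are therefore not a matched background for these counts. Over the 278 members, the median log2 difference between sh1 and sh2 was 0.15, against -0.14 over all introns. With boundary and spliced reads each scaled to their own library totals, a setting added after the data were seen, these medians were 0.30 and 0.02 and 15 members were called. Of the 278, 109 (39.2%) were higher with sh1 in both experiments, against 16.1% of the other introns that could have been selected, and 64 (23.0%) were higher with sh2, against 26.1%.

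THOC2 had the lowest p of these. Its intron at chrX:123610964-123611439 stood at 1.71% and 2.17% in the control, 52.2% and 23.1% with sh1 and 4.66% and 6.56% with sh2. With sh1 it had 1493 and 619 boundary reads, with sh2 104 and 148, and in the control 35 and 53. The log2 difference between the shRNAs was 3.28 (SE 0.43, edgeR adjusted p 6.36e-10). The other THOC2 member, at chrX:123638124-123638933, stood at 18.7% and 6.54% with sh1 and 7.23% and 3.37% with sh2, and was not called (1.29, SE 0.49, edgeR adjusted p 1). Whether the 2 introns of THOC2 differ from each other was not tested.

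PPME1, a methylesterase of protein phosphatase 2A, stood at 0.457% and 0.648% in the control, 19.5% and 6.65% with sh1 and 1.97% and 1.93% with sh2 (log2 difference 2.73, SE 0.46, edgeR adjusted p 2.79e-05). EED, a core subunit of the Polycomb complex PRC2, stood at 1.20% and 1.496%, 19.4% and 9.10%, and 2.06% and 3.44% (2.46, SE 0.48, edgeR adjusted p 0.00245). GARS1, the glycyl-tRNA synthetase, stood at 1.22% and 1.16%, 27.9% and 11.9%, and 6.02% and 5.76% (1.88, SE 0.39, edgeR adjusted p 0.00797). The groups of sh1 and sh2 values did not overlap in these genes, which their choice by low p in this contrast favours.

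PSME3IP1, a partner of the proteasome activator PSME3, had a log2 difference of 2.16 (SE 0.42, edgeR adjusted p 0.00234), with 2.09% and 2.13% under sh2 against 1.02% and 1.01% in the control. DIAPH1 (2.002, SE 0.43, edgeR adjusted p 0.0177), MYH9, a nonmuscle myosin heavy chain (2.22, SE 0.49, edgeR adjusted p 0.0237), and the splicing factor IK (1.83, SE 0.41, edgeR adjusted p 0.0333) were the other called introns. Of the 8 genes, THOC2 and DIAPH1 were on the list of U12 genes written from memory. IPO11 had a similar order, 39.96% and 17.4% with sh1 against 7.87% and 5.71% with sh2, and was not called (2.39, SE 0.66, edgeR adjusted p 0.367).

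DESeq2, the smaller boundary count doubled and the coverage limit each left 0 of these calls, with 19, 23 and 28 members at an unadjusted p under 0.05, and a read minimum of 50 left 2. Without sh1 experiment 1 the edgeR test called 1 member, without sh1 experiment 2 14, and without either sh2 library 3. THOC2 was called without any of the 6 libraries in turn.

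**Figure D4:**
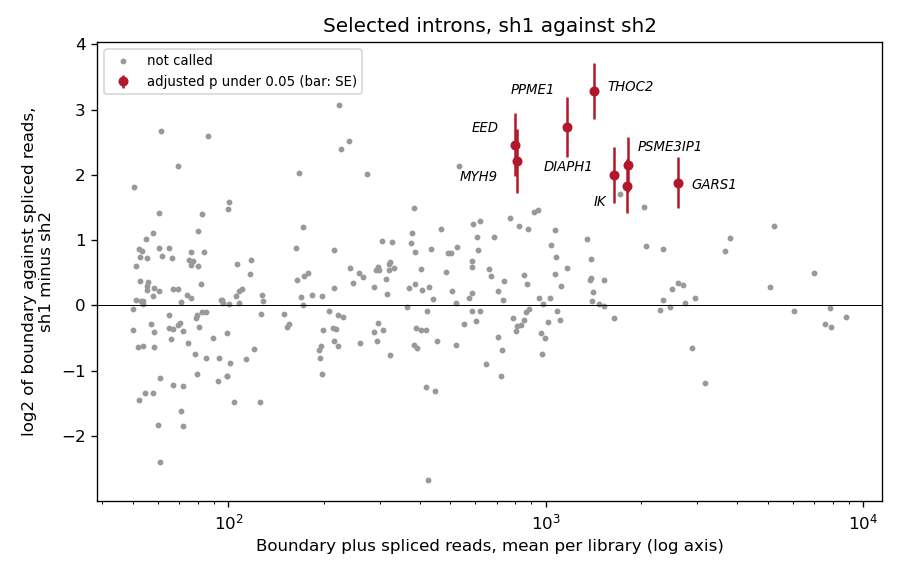
Fitted log2 difference in boundary against spliced reads between sh1 and sh2 (y) for each selected intron, by its mean reads per library (x, log axis); the 8 called introns are named, with their SE as bars. All 8 lie above 0, between 1.83 (IK) and 3.28 (THOC2).

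The other introns of the same genes were compared next. These introns come from the same libraries and went through the same selection without passing it. Of the 39 called below, 14 were within its read and control limits, so the selection shaped this set. Of 3571 other introns tested in 243 genes, the edgeR test called 39 (1.09%) more retained with both shRNAs against the control, against 0.33% of all introns tested, and 2 less retained, against 0.0209%. The 443 calls behind the 0.33% include 150 members, chosen for this difference, and without the members 293 of 133800 introns (0.219%) were called. Introns across a single exon from a member, with at most 500 nt between them, held most of the 39 calls. Of 227 upstream neighbours 11 (4.85%) were called, of 226 downstream neighbours 22 (9.73%), and of 3118 introns not adjacent 6 (0.192%). Only introns with the nearest end on each side counted as neighbours, so other listings of a neighbour fell among those not adjacent. Called examples are chr2:112231946-112233257 in ZC3H8 and chr10:48424586-48425887 in MAPK8, which overlap the called downstream neighbours. Called introns of DERL2 also overlap each other, so the 39 are not all separate introns. The median log2 difference was 0.33 upstream, 0.81 downstream and 0.05 for the rest. The difference between upstream and downstream was not tested, and adjacent introns can share reads across a short exon.

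HNRNPM had the lowest p of these neighbours. Its downstream intron at chr19:8467585-8468773 stood at 0.0705% and 0.0672% in the control, 0.852% and 0.431% with sh1 and 2.22% and 0.658% with sh2 (log2 difference 3.66, SE 0.43, edgeR adjusted p 1.24e-13). ACTL6A's upstream intron stood at 0.201% and 0.415%, 3.93% and 1.92%, and 4.22% and 1.90%. Both were at low levels, whereas the members beside them reached 14.2% and 32.8%. In other genes the neighbour was above the control limit for selection and had more retention than the member. The downstream neighbour in MAPK8 stood at 5.98% and 6.87% in the control, 54.4% and 28.5% with sh1 and 57.4% and 37.8% with sh2. Upstream neighbours in ICE1 (17.4% and 12.7% in the control) and E2F3 (5.31% and 5.29%) reached 70.7% and 34.9% with sh1 in experiment 1. Of the 39 introns, 25 had control retention of 3% or more in a library. VPS16 and MORC3 had called introns that were not adjacent to the member.

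**Figure D5:**
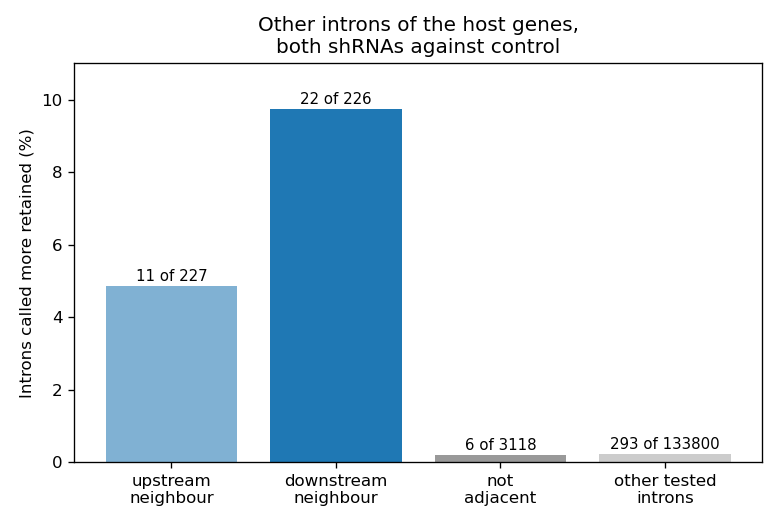
Percentage of other introns of the host genes called more retained by edgeR with both shRNAs against the control, by their position relative to the selected intron, with all tested introns other than the selected ones at the right. Downstream neighbours (9.73%) and upstream neighbours (4.85%) are above the 0.219% of the unselected introns, and introns not adjacent (0.192%) are close to it.

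The number of calls depended on the settings. The test called 20 introns more retained with DESeq2, 24 where the covered fraction was 0.95 or more and 6 when the smaller boundary count was doubled, and 0 less retained in each. It called 25 more retained without control experiment 1, 20 without control experiment 2, 24 without sh1 experiment 1, 25 without sh2 experiment 1, 56 without sh1 experiment 2 and 50 without sh2 experiment 2.

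Spliced RNA of the host genes was compared last, from spliced reads over introns that do not overlap, leaving out every intron that overlaps a member. In bulk RNA, fewer cells with a transcript and less RNA per cell cannot be told apart. The edgeR test called 0 of 243 host genes, and 0 of all 18166 genes, at an adjusted p of 0.05. The target of the shRNAs, ZRSR2, was not called either (log2 -1.20, SE 0.18, edgeR adjusted p 0.517), though DESeq2 called it (DESeq2 adjusted p 1.21e-06). A count of 0 from this test therefore does not show that the host genes were unchanged. At a like ratio of log2 value to SE, this gene test gave larger p-values than the intron test. Counts of calls from the gene and intron tests are therefore not on the same footing. Unadjusted p was under 0.05 in 46 host genes (18.9%) and in 8.27% of all genes, and the lowest adjusted p was 0.577. The median log2 difference was 0.06 over the host genes (quartiles -0.15 and 0.28) and 0.00 over all genes (-0.26 and 0.25). ZNF207, with the most reads of the members, stood at 291 and 376 CPM in the control, 487 and 419 CPM with sh1 and 498 and 429 CPM with sh2, a log2 value of 0.46 (SE 0.16, edgeR adjusted p 0.577).

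DESeq2, the alternative test, called 4 host genes higher, against 0.803% of all genes, and 4 lower, against 0.433%. VPS25, of the endosomal sorting complex ESCRT-II, stood at 172 and 147 CPM in the control, 78.8 and 107 CPM with sh1 and 56.7 and 78.5 CPM with sh2, with a log2 value of -1.03 (SE 0.23, DESeq2 adjusted p 0.00325). TMEM258 stood at 161 and 101 CPM, 56.2 and 66.2 CPM, and 40.8 and 67.2 CPM (-1.21, SE 0.29, DESeq2 adjusted p 0.00769). TMEM145 (-1.53) and the elongation factor TCEA1 (-0.74) were the other lower genes. MORC3, a nuclear-body ATPase, stood at 39.5 and 42.3 CPM in the control, 115 and 75.2 CPM with sh1 and 81.1 and 62.4 CPM with sh2 (0.997, SE 0.24, DESeq2 adjusted p 0.00769). The growth factor AREG (1.36), the splicing kinase SRPK2 (1.11) and the endocytic protein FCHO2 (1.27) were the other higher genes. All 8 had an edgeR adjusted p of 0.577.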

How the data were processed

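The authors deposited a table for each library with, per the file headers, counts of reads at both ends of each intron (A1, A2) and of spliced reads (Exon), not normalised, the covered fraction of the intron (CovFrac) and the percent named MSI. MSI was recomputed as 100(A1 + A2)/(A1 + A2 + 2 Exon), and the largest deviation was 2.8e-14. The aligner, counting program and strand use are not given in the sources used here, so reads of antisense genes cannot be told apart. Libraries differed in spliced reads from 82986327 to 101120454, and introns with few reads have the least precise retention.

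The deposited positions were taken as GRCh38. The build in the submitters' processing notes is hg19. Of 3854 intron 5′ ends lying in RefSeq promoter sequences on GRCh38.p14, 3780 began with GT, and 1357 of 1375 3′ ends were AG. Gene names come from the RefSeq table on that build (94.6% of introns) and no coordinate was converted. Starts are counted from 1.

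Groups came from the sample titles. Each library gave 2 columns, boundary and spliced counts, in a model with a term for the library, all 6 libraries sharing 1 estimate of the spread, fitted with edgeR 4.0.16 (R 4.3.3) over introns with at least 20 reads. DESeq2 1.42.0 was the alternative. Gene sums of spliced reads stood in for gene counts. The procedures were tested on simulated data. Alternatives were other read, control and difference limits, the smaller boundary count doubled, a coverage limit, a replicate block and leaving out each library. The members and gene lists were chosen with earlier results of these data known. The text names the 12 largest differences, the 5 introns with most reads, up to 4 per gene list, the 5 lowest p of each contrast, genes with 2 members, the shortest and longest intron, those next to the limit and the called host genes. The 3 sh1 against sh2 calls beyond the 5, SKIC2, the sequence-bearing introns and the further examples of pairs and neighbours were chosen after their values were seen. A few named results are not reported here.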

Additional observations from a re-analysis of the deposited data

Results flagged for a closer look

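The 8 introns called between the shRNAs are the results in which groups treated against the same gene differed by a test of the difference itself. The selection favours introns that are high with either shRNA alone, so their number describes the selected set only. The log2 values of sh1 minus sh2 were 3.28 in THOC2, 2.73 in PPME1, 2.16 in PSME3IP1, 2.46 in EED, 1.88 in GARS1, 2.002 in DIAPH1, 2.22 in MYH9 and 1.83 in IK. All were lost with DESeq2, with the smaller boundary count doubled and with the coverage limit, and all kept a positive value under every alternative run.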

How the results depend on the processing

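The number of selected introns was 492 at a read minimum of 20, 170 and 477 at control limits of 2% and 5%, and 469 and 160 at differences of at least 3 and 6 points. Leaving out a library gave 257 to 720 introns, the highest without control experiment 1 (707 without control experiment 2). Leaving out a control removes its conditions from the selection and changes the means, and what part each had was not tested. With the smaller boundary count doubled 367 introns passed, of which 164 were among the 278. Of 512 alternative differences of the 64 named introns, 505 moved by less than the spread of the knockdown libraries, 7 by more, all with the smaller boundary count doubled, and 0 changed sign. These counts were largely fixed in advance. Leaving out a single knockdown library cannot move the mean by as much as that spread. The selection also fixed the sign, whichever library is left out.

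The contrast of sh1 and sh2 called 2 members at a read minimum of 50, 0 with the smaller boundary count doubled, 0 with a covered fraction of at least 0.95, 0 with DESeq2, 15 with boundary and spliced reads scaled to their own totals (added after the data were seen), and 1 to 14 without a library. The contrast of experiments called 20, 0, 0 and 17 under the first 4 of these settings, and 6 to 43 without a library. The difference of the knockdown effect between experiments called 0 to 1 without a library, the 1 being without sh2 experiment 1. The other introns of the host genes gave 6 calls with the smaller boundary count doubled, 24 with the coverage limit, 20 with DESeq2 and 22 to 58 without a library, and the spliced reads of the host genes 8 with DESeq2 and 0 without any library. A fit without a library leaves a group with 1 sample, which is assumed to vary like the others. The cause of these shifts was not tested.

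With the experiment number as a replicate block, the sh1 and sh2 contrast called 17 members (15 higher with sh1, 2 higher with sh2), the other introns 64 (62 more retained) and the host genes 0. The labels do not say that libraries with the same number were handled together. The pairing correlations of the libraries' deviations from their group means were 0.05, 0.11 and 0.10 for control with sh1, control with sh2 and sh1 with sh2. For introns with 50 to 100 reads, depth limits the retention of a single library.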
